A study of Homo sapiens with 15 samples.

Results

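REST and the corepressors it recruits were examined as 10 genes out of the 58302 listed in the count tables of C4-2B cells. The 10 genes were chosen by name as REST itself (RE1 silencing transcription factor), the CoREST scaffolds RCOR1, RCOR2 and RCOR3, the scaffold SIN3A, the histone deacetylases HDAC1 and HDAC2, the histone demethylase KDM1A, the histone methyltransferase EHMT2 and the phosphatase CTDSP1, by a rule that uses no measured value. Earlier results of these data were nevertheless known when these 10 genes were chosen. Each of them was matched by its Ensembl identifier to a row of the tables and had counts in every library. C4-2B is an established human prostate adenocarcinoma cell line, labelled wild type, grown in RPMI medium with serum and given no treatment that the labels name. The study used it as the adenocarcinoma parent of the enzalutamide-resistant, neuroendocrine-like ER cells, and also sequenced DKD cells, a neuroendocrine-like derivative of C4-2. The other libraries are labelled as DKD or ER cells with a scrambled control (scr) or an siRNA to Pax5. Those 4 groups account for 12 of the 15 labelled libraries and were not analysed here, so no change of REST between adenocarcinoma and neuroendocrine-like cells was measured. The study's methods describe the RNA-seq as done in triplicate and its experiments in general as independent replicates, while the labels of the 3 C4-2B libraries do not say whether they came from separate cultures. If they did not, the spread between them is technical.

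REST is a zinc finger protein that binds a DNA element called RE1, also known as NRSE, near many neuronal genes and silences them outside the nervous system. Its N terminus recruits SIN3A, and its C terminus recruits a CoREST protein. Both scaffolds carry HDAC1 or HDAC2, which remove acetyl groups from histones, and CoREST also carries KDM1A, which removes activating methyl groups from histone H3. EHMT2, also called G9a, adds repressive methyl groups to histone H3, and CTDSP1 is a small phosphatase that acts on RNA polymerase II and on REST. In prostate cancer, REST is known as a barrier to the neuroendocrine phenotype, and the splicing factor SRRM4 can turn REST mRNA into a truncated form.

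The libraries held 44992971, 49569026 and 46232076 counts in genes. Levels are given as TPM (transcript abundance scaled to a fixed total), which divides a gene's count by its exon length and then scales to the whole library, so that genes can be compared with each other. A gene whose TPM reached 1 in each of the 3 libraries was called expressed, which held for 32.8% of all genes listed and for 61.2% of the 19708 protein-coding genes. The cells carried the prostate luminal markers, all 7 of which lay between 197 and 1988 TPM on average (KLK3 at the top). Of 6 markers of immune, fibroblast and endothelial cells, PTPRC, CD3E, PECAM1 and CDH5 had at most 6 counts in any library, COL3A1 averaged 0.389 TPM and COL1A1 was expressed at 7.09 TPM. Their summed level was 6.81 to 8.22 TPM per library, and their part in the levels below was not tested.

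All 10 genes were expressed, compared with 61.2% of protein-coding genes. Their median was 45.0 TPM, compared with a median of 5.88 TPM over all protein-coding genes. REST, at chr4:56907876-56966678 on the plus strand of GRCh38, had 4890, 5673 and 5335 counts in replicates 1, 2 and 3. These correspond to 42.3, 44.6 and 45.2 TPM, or 44.05 ± 1.58 TPM (SD, n = 3). REST was thus well above the expression threshold in every library, and its mean exceeded that of 83.0% of protein-coding genes and of 72.2% of the expressed ones. With only the bases of canonical transcripts as gene length, the mean of REST was 31.5 TPM. The counts cover all exons of the gene together and do not separate full-length REST from its truncated splice form. They measure RNA only, and the amount of REST protein, which is also set by its degradation, was not measured.

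**Figure D1:**
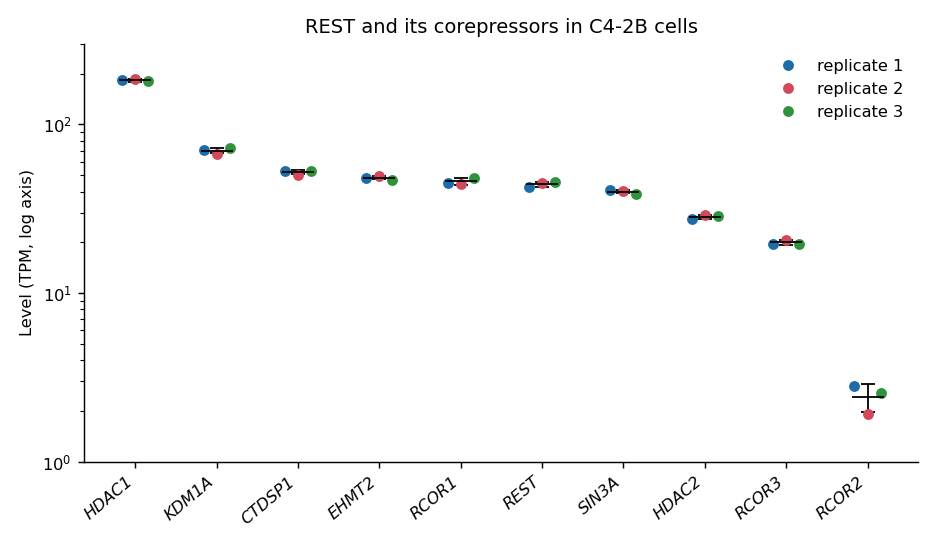
Level of REST and the 9 corepressor genes in C4-2B cells, in TPM on a log axis. Points are the 3 libraries, horizontal bars are means and error bars are SDs; HDAC1 averaged 182.7 TPM, RCOR2 2.43 TPM, and the other 8 genes lay between 19.9 and 69.9 TPM.

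Since REST acts through RE1, this sequence was looked for around gene starts. RE1 was searched as 2 blocks of letters, CAGCACC and GGACAG, with 2 bases between them, on both strands and within 2 kb of the gene start, and its 13 fixed letters were allowed up to 2 mismatches. The blocks do not overlap each other, and a match describes these letters only, not a bound site. The sites below were read from GRCh38. The first 5 belong to CHGA, SYP, SNAP25, CHRNB2 and SRRM4, shown because the study names them among its REST-repressed neuroendocrine genes. The last 2, of GRIN1 and SYT4, are shown because their genes had the highest levels among the targets with a complete match. Capitals mark letters that match the blocks.

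CHGA: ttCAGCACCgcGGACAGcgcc
SYP: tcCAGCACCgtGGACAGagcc
SNAP25: ttCAGCACCggGGACAGcggt
CHRNB2: ttCAGCACCacGGACAGcgcc
SRRM4: ttCAGCACtttGGACAGcgcc
GRIN1: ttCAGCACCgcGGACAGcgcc
SYT4: ttCAGCACCtcGGACAGaaca

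The CHGA site lies at chr14:92923523-92923543 on the plus strand, in an intron 452 bases after the gene start. The SYP site lies at chrX:49200122-49200142 on the minus strand, in an intron 126 bases after the start. The SNAP25 site lies at chr20:10219672-10219692 on the plus strand, in an intron 851 bases after the start. All 3 of these matches are complete and intronic. The CHRNB2 site, at chr1:154567954-154567974 on the plus strand, and the SRRM4 site, at chr12:118981833-118981853 on the plus strand, lie in exon sequence outside the coding part, 182 and 347 bases after the start, and the SRRM4 site has 1 mismatch. The GRIN1 site, at chr9:137139260-137139280 on the plus strand, and the SYT4 site, at chr18:43277293-43277313 on the minus strand, also lie in untranslated exon sequence, 879 and 346 bases after the start. Distances are from the outermost start listed for the gene, while intron and exon refer to the canonical transcript. The canonical transcript of GRIN1 starts 764 bases after that outermost start. The 21 bases printed for CHGA and GRIN1 are the same.

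CHGA, which encodes the secretory granule protein chromogranin A, had 1.38, 1.62 and 1.14 TPM. SYP, which encodes the vesicle protein synaptophysin, had 1.22, 1.36 and 1.34 TPM, and CHRNB2, which encodes a nicotinic receptor subunit, had 1.04, 1.16 and 1.11 TPM. These genes are used as neuroendocrine or REST target markers, and each was just above the threshold of 1 TPM in every library, although CHRNB2 averaged 0.728 TPM with the bases of its canonical transcript as length. SRRM4 had 15, 19 and 10 counts, or 0.109 ± 0.0299 TPM (SD, n = 3). SNAP25, which encodes a protein of the vesicle fusion machinery, had 0, 3 and 0 counts. In bulk RNA, a low level in all cells cannot be told apart from a higher level in a few of them.

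Over a list of 32 neuronal and neuroendocrine genes widely used as REST targets, 12 were expressed (37.5%), compared with 61.2% of protein-coding genes. The median of the list was 0.229 TPM, compared with 5.88 TPM over protein-coding genes and 45.0 TPM over the REST and corepressor genes. The highest was SYT4, a synaptotagmin of secretory vesicles, with 108.5, 112.2 and 111.2 TPM, which exceeds REST itself in every library. KIF5C, a neuronal kinesin, averaged 29.98 TPM, CPLX1, which encodes complexin 1, averaged 22.0 TPM, and VGF, a neuropeptide precursor, averaged 15.3 TPM. GRIN1, an NMDA receptor subunit, averaged 9.34 TPM. These 5 genes together show that the list was not uniformly low. At its lower end, CHGB, which encodes chromogranin B, had 1 count in all, and the choline acetyltransferase gene CHAT had 0. A count of 0 allows up to 0.0177 TPM for CHAT, taken as 3 counts over the 3 libraries and covering counting error only.

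**Figure D2:**
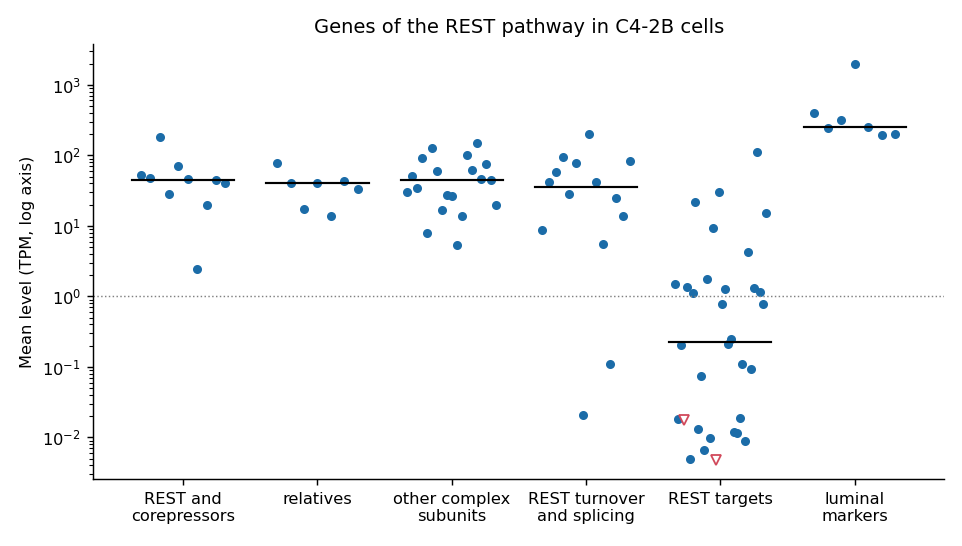
Mean TPM on a log axis of each gene in 6 lists, with the list median as a black bar and the threshold of 1 TPM as a dotted line. Open triangles are the 2 REST targets with 0 counts, drawn at the level that 3 counts would have; the REST target list has a median of 0.229 TPM, below the other lists shown.

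A complete match was found within 2 kb of the start for 10 of the 32 targets, a match with 1 mismatch for 7 more, and a match with 2 mismatches for 3. Among all 19695 protein-coding genes searched, 0.487% had a complete match, 2.80% had at most 1 mismatch and 23.1% had at most 2. None of the 10 REST and corepressor genes had a match with fewer than 2 mismatches, and KDM1A, EHMT2 and CTDSP1 had one with 2. At 3 of 10, the share with up to 2 mismatches stood near the 23.1% of all genes. Targets were listed as genes widely used as REST targets, so their matches are a check of the search and not a result.

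The level of protein-coding genes was then set out by their best match. Of the 96 genes with a complete match, 29 were expressed, or 30.2%, and their median was 0.0886 TPM. With 1 mismatch, 253 of 456 genes were expressed (55.5%), and with 2 mismatches 2503 of 3996 (62.6%), close to the 61.1% of the 15147 genes with 3 or more. Over all protein-coding genes, the share was thus lowest for the complete match, followed by 1 mismatch, while genes with 2 mismatches stood near the remaining genes. The target list by itself ran the other way. Of its 17 genes with at most 1 mismatch, 9 were expressed, with a median of 1.11 TPM, compared with 3 of 15 and a median of 0.210 TPM for the other targets. Leaving out the 32 listed targets gave 24 of 86 genes expressed, or 27.9%. Genes are not replicates, so the shares are a description without a test, and the part of REST in them was not tested.

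**Figure D3:**
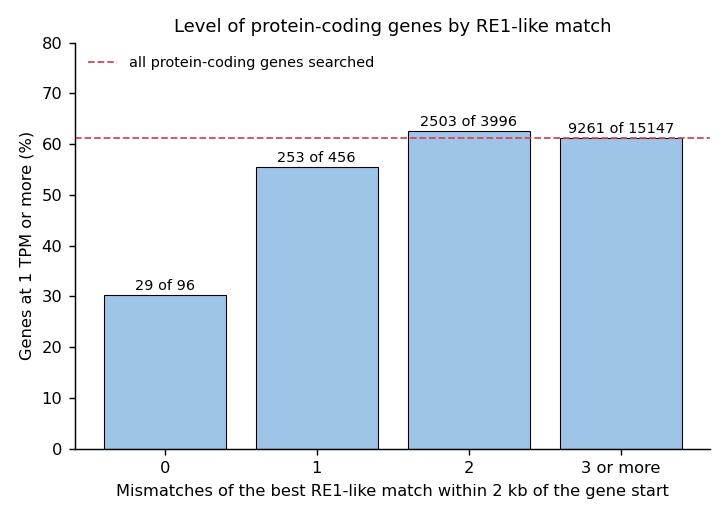
Share of protein-coding genes at 1 TPM or more in all 3 C4-2B libraries (%), by the number of mismatches in the best RE1-like match within 2 kb of the gene start, with the numbers of genes above the bars and the share of all genes searched as a dashed line. The share was 30.2% for a complete match and 55.5 to 62.6% for the other classes.

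Among the scaffolds, RCOR1, which encodes CoREST itself, was expressed at 45.2, 44.5 and 48.2 TPM. RCOR3 followed at 19.5, 20.8 and 19.6 TPM, and RCOR2 was low at 2.82, 1.93 and 2.55 TPM. The libraries of the 3 paralogs did not overlap. RCOR2 rested on 299 counts over all libraries (95% exact Poisson interval 266 to 335, counting error only), and its coefficient of variation of 18.8% was the largest of the 10 genes. RCOR1 made up 67.2% ± 1.16 of the TPM of the family, RCOR3 29.2% ± 1.55 and RCOR2 3.56% ± 0.657 (SD, n = 3). RCOR1 was 2.31 ± 0.158 times as high as RCOR3 (SD, n = 3), and this ratio was 1.23 when only the bases of the canonical transcript were used as gene length. Relative to REST, RCOR1 stood at 1.07, 0.996 and 1.07 in the 3 libraries, so their levels per length overlapped. On the CPM scale, which leaves length out, REST was higher in all 3 libraries, at 112.8 compared with 91.5 CPM for RCOR1, without overlap.

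SIN3A, the scaffold bound by the other end of REST, had 40.7, 40.1 and 38.8 TPM. Its relative SIN3B averaged 33.0 TPM. SIN3A accounted for 54.7% ± 0.614 of the TPM of both genes (SD, n = 3) and was higher in all 3 libraries. SIN3A took 7348, 7956 and 7145 counts, the second largest count of the 10 genes, over an exon length of 12453 bases.

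HDAC1 was the highest of the 10 genes, with 182.4, 185.8 and 179.8 TPM from 10478, 11723 and 10527 counts. Its mean exceeded that of 97.0% of protein-coding genes. HDAC2, the other deacetylase of the SIN3 and CoREST complexes, had 27.4, 29.1 and 28.6 TPM. The ratio of HDAC1 to HDAC2 was 6.44 ± 0.184 on the TPM scale (SD, n = 3) but 1.65 ± 0.0471 on raw depth-scaled counts (CPM, scaled to library totals without length), because HDAC2 is listed with 15461 exon bases and HDAC1 with 3963. With canonical transcript bases the ratio was 7.61 ± 0.217 (SD, n = 3). HDAC1 was above HDAC2 on each of these scales and in every library. Of the other class I deacetylases, HDAC3, which works in a different corepressor complex, averaged 40.8 TPM, and HDAC8 averaged 13.7 TPM. HDAC1 made up 68.8% ± 0.412 of the TPM of the 4 genes (SD, n = 3).

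KDM1A, the demethylase also called LSD1, was the second highest of the 10 genes by TPM, at 70.5, 67.2 and 72.2 TPM. By CPM, SIN3A and HDAC2 also stood above it. KDM1A was 1.59 ± 0.0820 times as high as REST by TPM (SD, n = 3), 1.08 times by CPM and 2.56 times with canonical transcript bases. Its relative KDM1B, which does not bind CoREST, averaged 42.7 TPM, and KDM1A held 62.1% ± 0.683 of the TPM of the pair (SD, n = 3). EHMT2 had 48.4, 49.3 and 47.1 TPM. Its partner EHMT1, with which it forms a heterodimer, averaged 17.5 TPM. EHMT2 was the higher of these methyltransferase genes per length, but not on the CPM scale. It held 73.4% of their TPM, 53.7% with canonical transcript bases and 47.5% of their CPM, where EHMT1 is listed with 22217 exon bases, of which 5095 are in its canonical transcript.

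**Figure D4:**
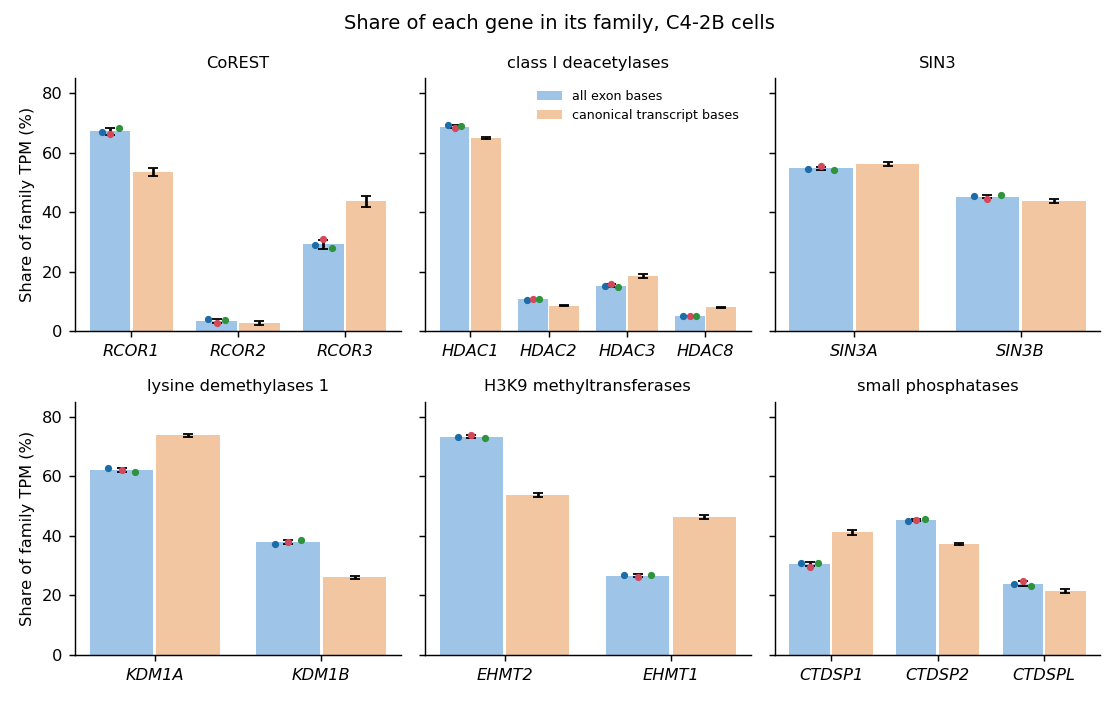
Share of each gene in the summed TPM of its family (%), with gene length taken as all exon bases (blue) or as canonical transcript bases (orange). Bars are means and error bars SDs over 3 libraries, and points are single libraries for the blue bars (blue, red and green for replicates 1, 2 and 3); RCOR1, HDAC1, SIN3A, KDM1A and EHMT2 lead their families under both lengths, while CTDSP1 and CTDSP2 change places.

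CTDSP1 had 52.7, 50.3 and 53.2 TPM. An unnamed long non-coding RNA gene on the opposite strand covers 9.90% of its exon bases, and its mean was 55.1 TPM with unshared bases as length, compared with 52.1 TPM with all bases. Its relatives CTDSP2 and CTDSPL averaged 77.4 and 40.8 TPM. CTDSP1 took 30.6% ± 0.748 of the TPM of the 3 phosphatases and CTDSP2 45.4% ± 0.378 (SD, n = 3). With canonical transcript bases the order turned, with 41.3% for CTDSP1 and 37.3% for CTDSP2. Each of these phosphatase genes carries a miR-26 gene in an intron, and the mature 5p forms are printed here, from RefSeq, since they share a seed (bases 2 to 8, in capitals) and are encoded within a member of the group and its relatives.

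hsa-miR-26b-5p: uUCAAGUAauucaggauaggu
hsa-miR-26a-5p: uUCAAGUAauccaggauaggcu

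The miR-26b form is encoded by MIR26B in an intron of CTDSP1 (chr2:218402657-218402677, plus strand). The miR-26a form is encoded by MIR26A2 in CTDSP2 (chr12:57824658-57824679, minus strand) and by MIR26A1 in CTDSPL (chr3:37969413-37969434, plus strand). Reads over the hairpins numbered 13, 11 and 14 for MIR26B, 4, 7 and 3 for MIR26A2, and 0, 4 and 1 for MIR26A1. The libraries were not made for small RNAs, so such reads do not measure the mature miRNA and cannot be told apart from reads of the host intron.

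Ordered by TPM, the genes ran HDAC1, KDM1A, CTDSP1, EHMT2, RCOR1, REST, SIN3A, HDAC2, RCOR3 and RCOR2. Of the 9 neighboring pairs in this order, 7 had libraries that did not overlap. The exceptions were EHMT2 with RCOR1 and RCOR1 with REST, each higher in 2 of 3 libraries. HDAC1 was the highest and RCOR2 the lowest gene with any of the lengths tried and on the CPM scale, with RCOR3 next to last, while the positions between them moved. SIN3A went from the seventh place by TPM to the second by CPM, and HDAC2 from the eighth to the third. The canonical transcript length put SIN3A in the fifth place, ahead of RCOR1 and REST.

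**Figure D5:**
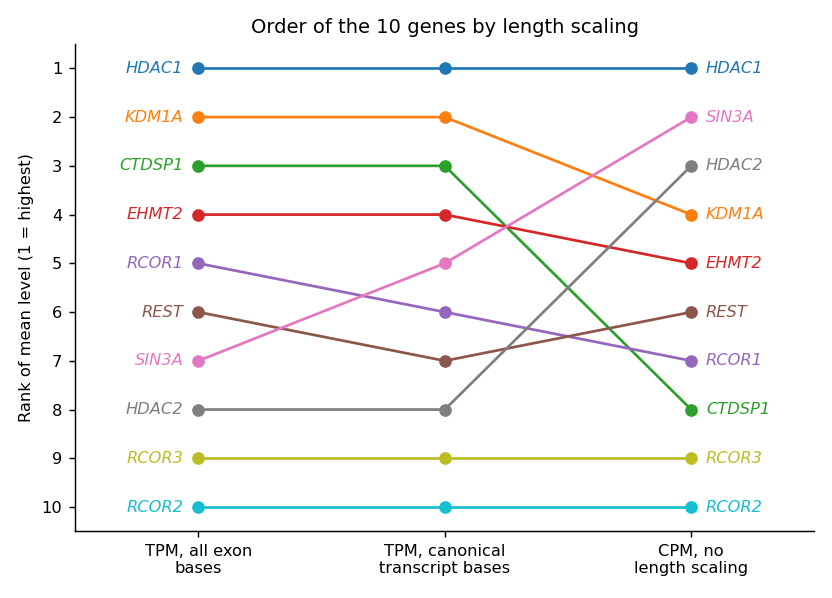
Rank of the mean level of the 10 genes (1 is the highest) under 3 ways to account for gene length: TPM with all exon bases, TPM with canonical transcript bases, and CPM without length. HDAC1, RCOR3 and RCOR2 keep ranks 1, 9 and 10, and SIN3A, HDAC2 and CTDSP1 move most.

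A list of 19 other subunits and cofactors of REST complexes was also examined, which does not cover all of them. All 19 genes of this list were expressed as RNA, compared with 61.2% of protein-coding genes. Their median was 44.8 TPM, near the 45.0 TPM of the REST and corepressor genes. The highest were SAP18, a SIN3 complex subunit, at 147.7 TPM, HMG20B, a CoREST complex subunit, at 125.2 TPM, the histone-binding subunit RBBP4 at 100.1 TPM, GSE1, found with CoREST, at 92.6 TPM, and SMARCA4, the ATPase BRG1, at 75.9 TPM. Toward the low end, PHF21A, which reads unmethylated histone H3 in the KDM1A complex, averaged 14.0 TPM, and the Mediator subunit MED26 was the lowest at 5.36 TPM. Of the exon bases of MED26, 50.1% also lie under another gene, where reads were counted for neither, and its level was 10.2 TPM when only its unshared bases were used as length.

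Of 14 genes that regulate the stability, location or splicing of REST, 12 were expressed (85.7%), compared with 61.2% of protein-coding genes. The median over the list was 35.1 TPM. The splicing repressor PTBP1 was highest at 199.9 TPM. CUL1, a scaffold of the ubiquitin ligase that degrades REST, averaged 93.8 TPM and FBXW11, a substrate receptor of that ligase, 76.7 TPM. USP7, a deubiquitinase that stabilizes REST, averaged 82.6 TPM, and the kinase CSNK1E averaged 58.1 TPM. Not all genes of these roles stood as high. The other substrate receptor BTRC averaged 8.70 TPM, the ligase subunit SKP1 42.2 TPM and the deubiquitinase USP15 13.7 TPM, 3 genes added after their values were seen. At the low end, the splicing factor SRRM3 averaged 5.59 TPM, with SRRM4 at 0.109 TPM and PRICKLE1, which brings REST to the nucleus, at 0, 6 and 2 counts.

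Differences between the 3 libraries were tested for every gene with at least 30 counts by a chi-square test of the counts against library size, divided by 2 since both mates of a pair were counted. None of the 10 genes differed at a Benjamini-Hochberg adjusted p under 0.05, compared with 176 of 22229 genes tested (0.792%). At an unadjusted p under 0.05 there were 3, KDM1A, RCOR1 and SIN3A, compared with 2503 of the 22229, and the adjusted p of the 10 genes ran from 0.369 to 0.676. Without the division, KDM1A, RCOR1, SIN3A and REST passed, against 17.3% of all genes tested. In KDM1A, the gene with the smallest p, replicate 2 was the lowest at 67.2 TPM and replicate 3 the highest at 72.2 TPM. Coefficients of variation of the 10 genes ran from 1.65% for HDAC1 to 18.8% for RCOR2, with a median of 3.25%. The median was 4.06% over the protein-coding genes tested, which include any such gene with at least 30 counts. In lists of more similar level it was lower than in the 10 genes, at 2.34% for their 7 closest relatives and 2.52% for 19 cofactors. The chi-square test compares libraries of the same cells and no conditions.

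Promoter sequence did not enter the choice of the genes. RefSeq promoter windows of 300 bases on GRCh38.p14 were found for 9 of the 10 genes, all but RCOR2. Of their 18 windows, 16 (88.9%) had an observed to expected CpG ratio of at least 0.6, compared with 62.7% of 21548 windows of protein-coding genes. CTDSP1 alone had 7 of the 18 windows, including both windows under 0.6, at 0.402 and 0.462. The median ratio of the 18 was 0.851, compared with 0.742, and windows of the same gene are not independent, so these shares are given without a test.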

How the data were processed

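Ribosomal RNA was removed from total RNA before directional libraries were made, per the labels, and they were sequenced as read pairs according to the paper's methods. Reads were aligned to GRCh38 (hg38) with STAR 2.7.0f, according to the submitters' processing notes. The authors deposited unnormalized counts for each gene, made with featureCounts (Subread 1.6.3) and Ensembl release 90, as the file headers state. The recorded command set no strand and no fragment counting, so reads of either strand and both mates were counted, reads shared by genes were not, and antisense reads cannot be told apart. Intervals and limits cover counting error only and, with mates counted separately, are too narrow. The authors' other value, gene length, equalled the union of exon bases for all 58302 genes.

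Counts were scaled to TPM by that length and to CPM, with means and SDs over 3 libraries. Of the gene identifiers, 57532 were matched to a list of gene names, and 41836 had a symbol other than the identifier. Gene types and canonical transcripts came from GENCODE on GRCh38, and site annotations refer to the canonical transcript. Library sizes used edgeR 4.0.16 (TMM). The chi-square test had 2 degrees of freedom and was tested on simulated data. The alternatives were CPM, other lengths and denominators, other thresholds, DESeq2 1.42.0 size factors, other RE1 windows and leaving out each library.

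The genes and lists were chosen with earlier results of these data known. Named are all 10 genes and their 7 closest relatives, the 5 highest and 3 lowest genes by mean TPM of the cofactor, regulator and target lists, and CHGA, SYP, SNAP25, CHRNB2 and SRRM4; markers and overlapping or intronic genes are named as checks, and BTRC, SKP1 and USP15 were added after their values were seen. Some genes that this rule names are not reported here, and they remain in the counts and medians of their lists. The 12 libraries of the other groups were not analysed here.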

Additional observations from a re-analysis of the deposited data

How the results depend on the processing

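The levels depended on the unit, the denominator and the length used. Sizes in TPM and CPM cannot be compared, and a change of denominator scales every gene of a library alike. The median of the 10 genes, 45.0 TPM, was 112.9 as CPM, 65.1 TPM without the 10 most abundant and the mitochondrial genes (43 in all) in the denominator, 43.0 TPM with unshared exon bases and 40.4 TPM with canonical transcript bases, a length chosen after seeing the data. On the CPM scale the family shares were 60.2% for RCOR1, 50.8% for HDAC1, 63.2% for SIN3A, 66.0% for KDM1A, 47.5% for EHMT2 and 27.2% for CTDSP1. With canonical transcript bases they were 53.5%, 65.0%, 56.2%, 73.9%, 53.7% and 41.3% in the same order. With unshared bases HDAC1 had 67.7%, EHMT2 72.7% and CTDSP1 32.8%. Of the 32 targets, 12 reached 1 TPM and 6 reached 2 TPM in all libraries. Leaving out each replicate in turn left 38 (without replicate 1), 223 (without replicate 2) and 49 (without replicate 3) genes that differed between libraries, of which none was a REST or corepressor gene; without the division by 2 there were 3835, with 4 of the 10 genes among them. The window of 250 bases before to 50 after the start held a match in 5 targets, compared with 20 within 2 kb. Starts of canonical transcripts, also chosen after seeing the data, gave 27.3% expressed among 110 genes with a complete match. The leading gene of a pair changed for EHMT2 and EHMT1 as CPM and for CTDSP1 and CTDSP2 with canonical bases. In all, 109 alternative values of the summary results stayed within the limit for their kind and 24 moved past it. The levels of single genes were counted apart. They moved past the limit for all 10 genes with canonical transcript bases and with the smaller denominator. With CPM and with unshared bases, 9 of the 10 moved. The limit was 1 SD between libraries for levels and shares and 1.5 times for counts. For the share with a complete match it was the confidence interval. Leaving out 1 library cannot move a mean level or share by 1 SD, so the 109 include values that could not have moved. The cause was not tested for the moved values other than those of length and unit. No paired analysis was possible because the count tables analysed were of 1 group only.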

Other observations

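HDAC1 has processed copies elsewhere in the genome, of which HDAC1P2 had 4, 5 and 5 counts and HDAC1P1 had 0, compared with 10478 to 11723 for HDAC1. Genes on the opposite strand overlap the exons of 5 of the 10 genes. Of the 19708 protein-coding genes, 8427 share exon bases with another gene on either strand. NOA1, next to REST, had 3264, 3422 and 3046 counts and shares 23 exon bases with it. HDAC2-AS2 had 39, 28 and 36 counts, and EHMT2-AS1 had 10, 19 and 12 counts.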
